A study of Sus scrofa with 48 samples.

Results

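The receptors for fibroblast growth factors (FGF) were examined in perirenal adipose tissue of growing pigs, together with the co-receptor beta-klotho (KLB) and the ligands FGF1 and FGF2. Members were chosen as the probes of a porcine microarray whose gene name in the scanner files was FGFR1, FGFR2, FGFR3, FGFR4, KLB, FGF1 or FGF2. The rule found 12 probes of 5 genes among 60305 probes: 4 for FGFR1, 4 for FGFR2, 1 for FGFR3, 2 for FGFR4 and 1 for KLB. No probe carried the name FGF1 or FGF2. A probe with the older name AFGF, which lies outside the rule, carries a transcript that RefSeq assigns to FGF1, and it was well above background on 3 of 48 arrays.

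The study compared 48 pigs, 1 array each, in 4 groups of 12. Pigs came from 2 lines selected in opposite directions for residual feed intake, the feed eaten beyond what growth and maintenance predict (RFI): RFIneg, with a low RFI and more efficient, and RFIpl, with a high RFI. Each line was fed freely either an HF diet, rich in fat and fiber, or an LF diet, poor in both and rich in starch, and the labelled age was 132 days in all groups. Fat, fiber and starch changed together between the diets and cannot be told apart. The study also reports that HF pigs ate less, ended lighter and had less fat for their weight. These differences go with every diet contrast and cannot be told apart from it. All pigs were castrated males of the Large White breed, and each line is a single selected population.

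Array medians lay between 115 and 178 intensity units, no array had saturated spots, and each of 6 slides carried 2 arrays of each group. The tissue label was checked on adipocyte genes: ADIPOQ, which encodes adiponectin, was well above background on 48 arrays and lay between 9.53 and 10.50 log2 units above the array median. PPARG, the master regulator of adipocyte differentiation, lay between 7.13 and 8.27 at its brightest probe and was lower there under HF (-0.19 ± 0.07, adjusted p = 0.0359). The study reports the opposite direction by qPCR in perirenal fat of these pigs, with PPARG higher under HF. The difference between the methods was not tested. ADIPOQ differed by 0.08 ± 0.05 between diets and was not called (adjusted p = 0.259). LEP, which encodes leptin, was lower under HF, with a log2 difference of -0.94 ± 0.15 (SE, adjusted p = 5.42e-06).

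FGF receptors are tyrosine kinases of the cell surface that bind FGF ligands together with heparan sulfate chains or with a klotho protein, and signal through docking proteins to RAS and the MAP kinases. In adipocytes, FGFR1 paired with KLB is the receptor for the hormone FGF21. FGFR4 paired with KLB is best known from the liver, where it receives the intestinal hormone FGF19 and represses bile acid synthesis. FGFR2 is spliced into an epithelial IIIb form and a mesenchymal IIIc form, which differ in the third immunoglobulin-like domain and in the ligands they bind.

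These 6 probes of 60 bases, in coding sequence, show stretches of FGFR2, FGFR3, FGFR4 and KLB that the array reads. The FGFR1 probes, FGFR4 probe A_72_P297849 and FGFR2 probe O13341 are not among them. Of those shown, O8277 and A_72_P413708 were too dim to be tested.
FGFR4 probe O8277: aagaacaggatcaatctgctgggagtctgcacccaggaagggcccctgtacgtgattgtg
FGFR3 probe O6043: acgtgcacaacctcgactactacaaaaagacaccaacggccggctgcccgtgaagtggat
FGFR2 probe A_72_P706634: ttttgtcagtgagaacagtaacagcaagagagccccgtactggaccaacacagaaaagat
FGFR2 probe A_72_P413708: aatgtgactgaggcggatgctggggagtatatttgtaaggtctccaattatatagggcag
FGFR2 probe A_72_P232647: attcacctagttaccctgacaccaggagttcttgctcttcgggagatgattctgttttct
KLB probe O2695: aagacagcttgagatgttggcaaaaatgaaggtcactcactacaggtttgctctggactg
The FGFR2 probes start at bases 473, 1032 and 2386 of the porcine transcript. The files do not say which exon or protein domain a probe reads. The other FGFR4 probe, A_72_P297849, starts at base 2647 of its Ensembl transcript. Of the FGFR1 probes, 3 start at bases 607, 1172 and 2465 of an Ensembl transcript, and the brightest, A_72_P046056, was designed on a cDNA clone. No genome build is named in the scanner files, so no coordinates are given.

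The data show 1 receptor lower and parts of 2 others higher under the HF diet. FGFR4 was 1.57-fold lower in HF than in LF pigs (95% CI 1.33 to 1.84, 24 pigs each). FGFR1 rose by 1.13-fold at its brightest probe and FGFR2 by 1.24-fold at its brightest probe, both small and both lost with processed signals centred on the median or with the mean of a gene's probes. The FGFR2 call was also lost in the methods' two-way test and without single arrays. KLB and FGFR3 did not pass the test. A probe was called at a raw p under 0.01, a fold change over 1.1 and a Benjamini-Hochberg adjusted p under 0.08, the thresholds of the study. Of 12 member probes, 10 were well above background on every array of at least 1 group and were tested, and diet was called for 5 of them, 4 higher and 1 lower. Over all 40509 tested probes, 24.3% were called for diet, 9.03% higher and 15.2% lower. By gene, each represented by its brightest tested probe, 3 of 5 were called beside 25.3% of 9826 named genes. Probes of 1 gene share a transcript and are not independent counts.

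FGFR4 was read at probe A_72_P297849, given as log2 signal minus the array median. In the LF RFIpl group its lowest, median and highest values were 0.10, 0.98 and 2.06, and in the LF RFIneg group -0.22, 0.62 and 1.23. In the HF RFIneg group they were -0.41, 0.15 and 0.68, and in the HF RFIpl group -0.55, 0.10 and 0.70. The ranges of all groups overlapped, but each of the 24 HF pigs lay below the mean of the LF pigs, and 15 of 24 LF pigs lay above the highest HF pig. The mean was 0.12 ± 0.33 (SD, n = 24) under HF and 0.76 ± 0.53 under LF, a log2 difference of -0.65 ± 0.12 (SE, adjusted p = 5.13e-05). HF was lower on 6 of 6 slides, by a log2 difference between -0.31 and -0.99. With each array left out in turn the difference stayed between -0.60 and -0.69 and was called in 48 of 48 fits.

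**Figure D1:**
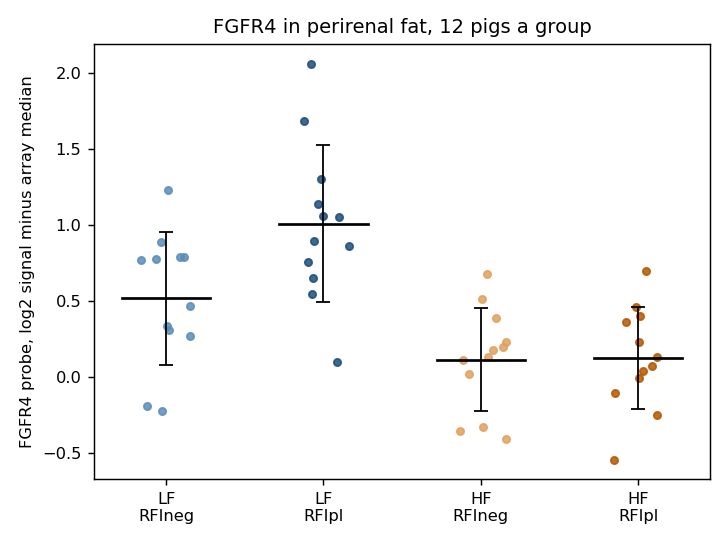
FGFR4 probe A_72_P297849 in each pig, as log2 signal minus the array median, for the 4 diet and line groups (points, 12 pigs a group; thick line, mean; bars, SD). The HF groups centre on 0.11 and 0.12, the LF groups on 0.52 and 1.01, and the groups overlap.

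The order of the FGFR4 group means was HF RFIneg (0.11 ± 0.34, SD, n = 12), HF RFIpl (0.12 ± 0.34), LF RFIneg (0.52 ± 0.44) and LF RFIpl (1.01 ± 0.52). No neighbours in that order passed the call rule: the steps were 0.01, 0.39 and 0.49 log2 units, with adjusted p = 0.995, 0.0780 and 0.279, in contrasts that called 1.06%, 21.1% and 0.452% of all probes. The step of 0.39 met the adjusted threshold but not the raw one (p = 0.0208, limma). In RFIpl pigs FGFR4 fell by 0.89 log2 units under HF, a 1.85-fold difference (SE 0.16, adjusted p = 0.000461). In RFIneg pigs the difference was -0.41 ± 0.16, with an interval from -0.74 to -0.07, and was not called (adjusted p = 0.103), beside 15.1% of all probes called in RFIpl and 13.3% in RFIneg. The difference between these diet effects, 0.48 ± 0.23, was not called in its own test (raw p = 0.0439, adjusted p = 0.99996 by limma), so the lines are not shown to differ in their response. The mean over both diets was lower in RFIneg by a log2 difference of -0.25 ± 0.12, also not called (adjusted p = 0.328).

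The other FGFR4 probe, O8277, was dim. It was well above background on 9 and 8 of 12 arrays in HF RFIneg and HF RFIpl and on 11 of 12 in each LF group, and so was not tested in the filtered fit. Its median was -1.35 under HF and -1.23 under LF, and 21 of 24 HF pigs were under the LF mean. With no filter on dim probes its difference was -0.16 ± 0.05 (adjusted p = 0.0312 by limma), past the thresholds. The authors kept this probe, and O8277 was also called in a fit of only the probes they kept (adjusted p = 0.0215 by limma). Without LF RFIneg pig 2, whose value of -0.27 stood far above its group, the difference was -0.12 ± 0.04, under the fold threshold. Both probes were thus lower under HF in direction, but their pig-to-pig deviations from the group means had a correlation of only 0.08 over 48 arrays.

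FGFR1, the main FGF receptor of adipose tissue, was read by 4 probes. At the brightest, A_72_P046056, the lowest, median and highest values were 6.78, 7.12 and 7.44 under HF and 6.65, 6.98 and 7.28 under LF. The diets overlapped, with 10 of 24 HF pigs above every LF pig and 2 LF pigs below every HF pig. The log2 difference was 0.18 ± 0.05 (SE, adjusted p = 0.00860), it was positive on 6 of 6 slides, and it was called in 48 of 48 fits with an array left out. With processed signals centred on the array median it was 0.14 and was not called, and the mean of the 4 FGFR1 probes, 0.13, was not called either. Probe A_72_P443284 gave means of 1.55 and 1.37 in HF and LF pigs and a difference of 0.18 ± 0.06 (adjusted p = 0.0299), called in 32 of those 48 fits. It was not among the probes that the authors kept. The other FGFR1 probes differed by 0.09 ± 0.06 and 0.06 ± 0.05 in the same direction and were not called (adjusted p = 0.249 and 0.419). So all 4 probes were higher under HF in direction, by at most 1.13-fold, and 2 of them passed.

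The array repeats some of these sequences under entries with no gene name, which gives a direct check of the measurement. A spot with the same 60 bases as A_72_P443284 had a correlation of 0.91 with it over 48 arrays and differed by 0.18 ± 0.06 between diets (adjusted p = 0.0202). A spot sharing 51 bases with A_72_P046056 had a correlation of 0.97 and differed by 0.17 ± 0.05 (adjusted p = 0.0130). These spots lie on the same arrays and read the same RNA, so they repeat the measurement and not the pigs. The FGFR1 values of single pigs were thus repeatable at the level of the spot.

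FGFR2 was read by 3 tested probes whose deviations from the group means moved together, with correlations of 0.81 to 0.92 over 48 arrays. At the brightest, O13341, the lowest, median and highest values were 2.05, 2.93 and 3.84 under HF and 1.54, 2.59 and 3.24 under LF. The diets overlapped widely, with 4 HF pigs above every LF pig and 20 of 24 HF pigs above the LF mean. The difference was 0.31 ± 0.11 (adjusted p = 0.0334). This call held in 20 of 48 fits with an array left out, where the difference ranged from 0.26 to 0.35, and it was positive on 5 of 6 slides, with -0.19 on slide 3. A_72_P706634 differed by 0.26 ± 0.09 (adjusted p = 0.0283), called in 32 of 48 such fits. A_72_P232647 differed by 0.16 ± 0.10 and was not called (adjusted p = 0.220). With processed signals centred on the array median, the calls of A_72_P443284 and O13341 were lost too, and A_72_P706634 and the FGFR4 probe were still called.

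The remaining FGFR2 probe, A_72_P413708, at base 1032, was near background. It was well above background on 8 of 48 arrays, 5 of them HF RFIneg, 2 HF RFIpl and 1 LF RFIneg, and was not tested. An unnamed spot with the same 60 bases was above background on 11 arrays, and the correlation of these spots was 0.08, so this stretch gave no repeatable value in perirenal fat.

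FGFR3, known best from cartilage and bone, gave values between -1.33 and -0.44 under HF and between -1.29 and -0.63 under LF at its only probe, O6043, well above background on 47 of 48 arrays. The medians were -1.02 under both diets. Its difference of 0.05 ± 0.06 was not called (95% CI -0.06 to 0.17, adjusted p = 0.499). A spot with the same 60 bases differed by 0.01 ± 0.04, and its correlation with O6043 over 48 arrays was 0.04. The spread of FGFR3 between pigs was therefore not repeated by a spot of the same sequence, unlike that of FGFR1.

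KLB, the obligate co-receptor of FGF21 and FGF19, had lowest, median and highest values of 0.11, 0.70 and 1.15 under HF and 0.19, 0.73 and 1.16 under LF. The ranges were nearly the same. The difference was -0.01 ± 0.07, with a 95% CI from -0.16 to 0.14 (adjusted p = 0.916), which leaves room for a change of either sign within that interval. Its sign was not stable: it was 0.02 with processed signals centred on the 75th percentile and 0.13 with spike-in centring. The 4 KLB group means lay between 0.66 and 0.71.

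**Figure D2:**
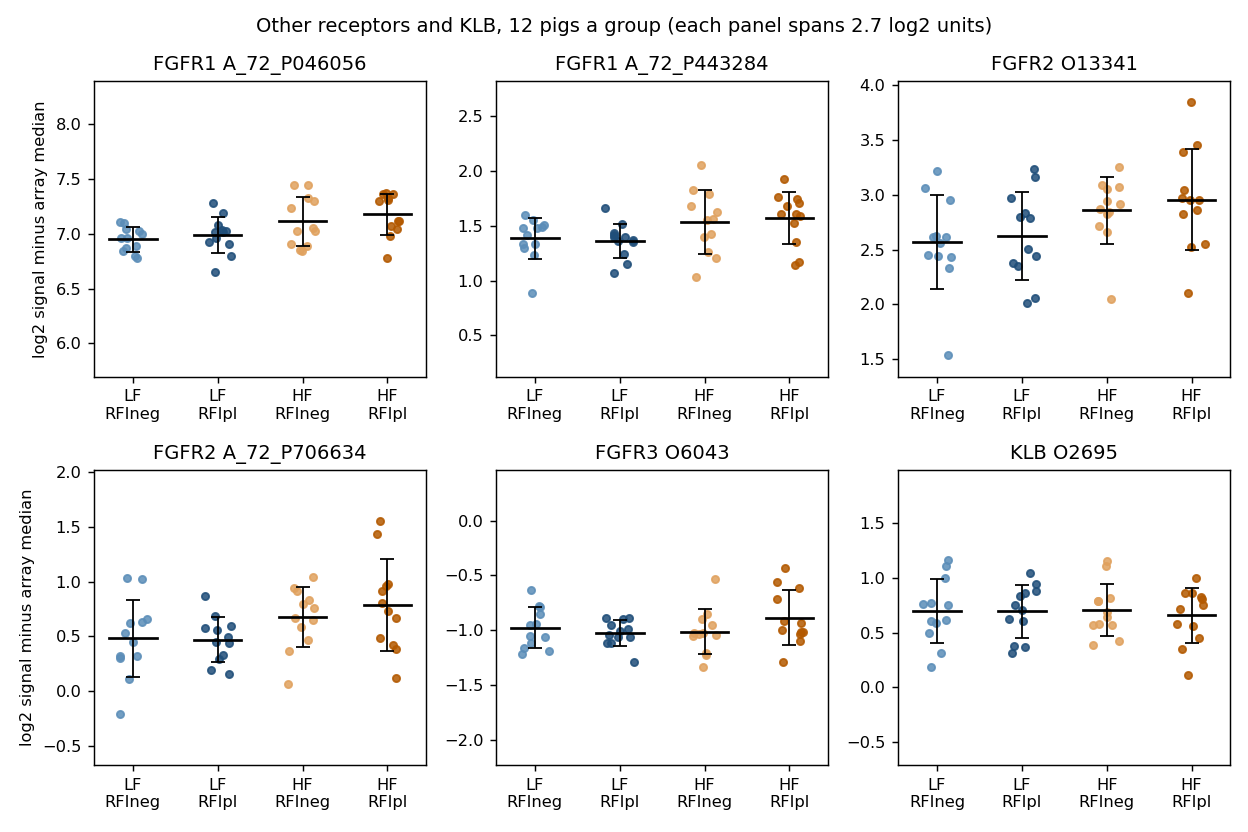
Values of 6 probes of FGFR1, FGFR2, FGFR3 and KLB in each pig, as log2 signal minus the array median, by diet and line group (points, 12 pigs a group; thick line, mean; bars, SD). Every panel spans the same log2 width. The HF groups sit slightly higher for FGFR1 and FGFR2, and the KLB groups lie at the same height.

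**Figure D3:**
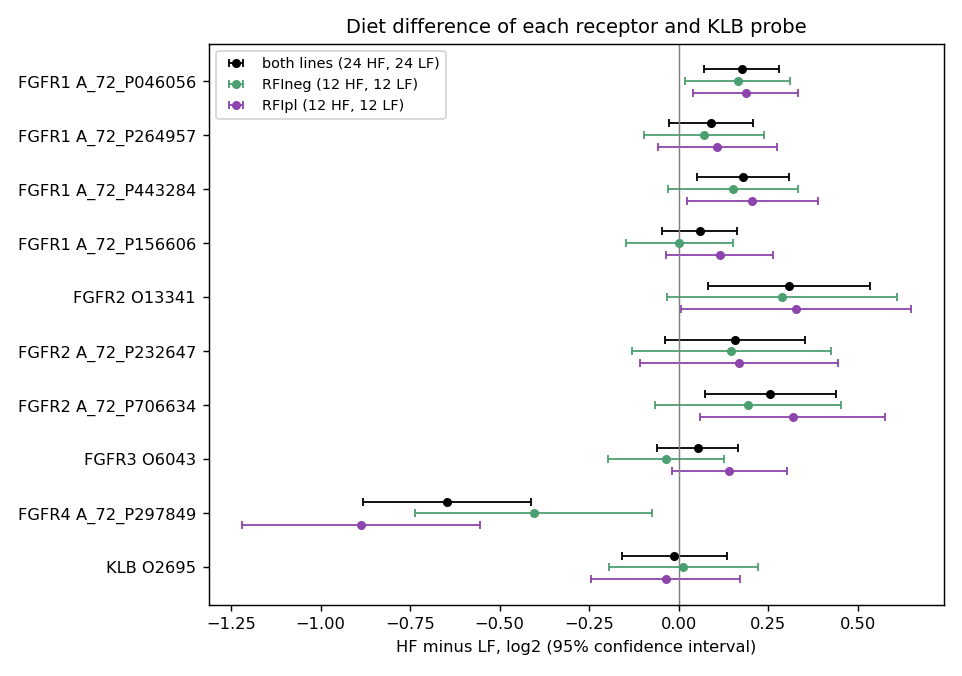
HF minus LF on the log2 scale for the 10 tested probes, with 95% confidence intervals, over both lines and within each line. FGFR4 lies farthest to the left, at -0.65 over both lines, -0.41 in RFIneg and -0.89 in RFIpl, KLB and FGFR3 lie near 0 on either side, and the FGFR1 and FGFR2 probes lie between 0.06 and 0.31 over both lines.

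No member probe was called for line, where 3.56% of all tested probes were, or for the interaction of diet and line, where 0 of 40509 probes were. At an unadjusted p under 0.05 the interaction gave 898 of 40509 probes in limma, among them 1 member, the FGFR4 probe, and 0 members in the methods' two-way test. Among member probes, the line difference was under 0.05 unadjusted for the same FGFR4 probe only, in limma and in the two-way test alike. All tested probes were not counted at that cut for line, so this has no background to be read against. Of the 20 member contrasts of diet within each line, only FGFR4 in RFIpl was called.

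**Figure D4:**
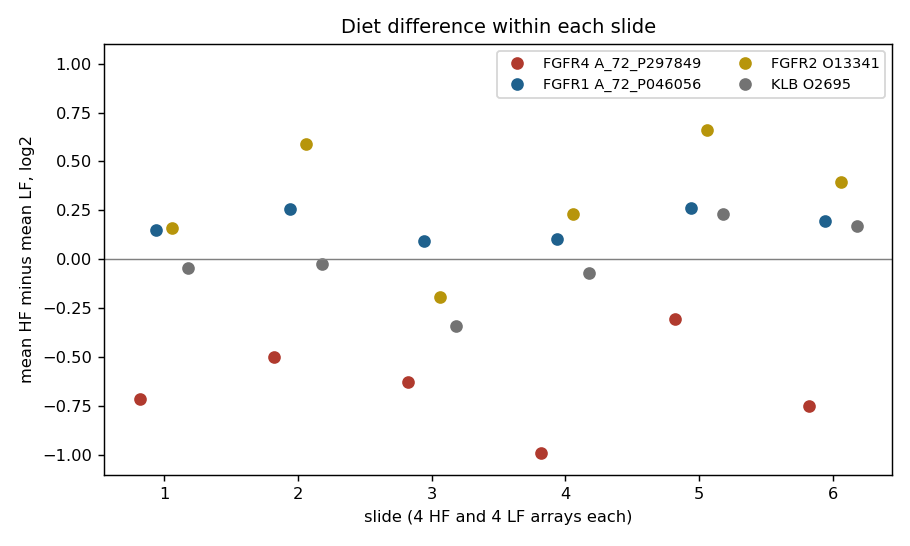
Mean HF minus mean LF on the log2 scale within each of 6 slides, 4 HF and 4 LF arrays each, for the brightest tested probe of FGFR4, FGFR1, FGFR2 and KLB. FGFR4 was below 0 on 6 of 6 slides and FGFR1 above 0 on 6 of 6, while FGFR2 crossed 0 on slide 3 and KLB was below 0 on 4 slides.

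After the group means were subtracted, FGFR4 at A_72_P297849 had positive correlations with the 3 FGFR2 probes (0.34 to 0.42 over 48 arrays) and with KLB (0.25), and negative ones with FGFR3 (-0.38) and the FGFR1 probes (-0.27 to -0.06). All pairs share the array and its centring. The FGFR3 value rests on O6043, whose spread was not repeated by a spot of the same bases (correlation 0.04). The named genes most like FGFR4 among 9825 were TSHR (0.73), which encodes the thyrotropin receptor, C19ORF55 (0.63) and CAV1 (0.61), which encodes the caveolar coat protein caveolin. For FGFR1 they were AP2A2 (0.64), of the endocytic adaptor complex, the potassium channel gene KCNQ5 (0.62) and the kinase gene MAPK13 (0.62). For KLB they were GTF2H2 (0.70), of a general transcription factor, PCCA (0.70), of propionyl-CoA carboxylase, and SCP2 (0.67), a lipid carrier of the peroxisome. Of these 9 genes, diet was called higher for KCNQ5 (0.39) and MAPK13 (0.50) and lower for GTF2H2 (-0.17) and SCP2 (-0.22). The 3 genes most like FGFR4 were not called, with TSHR at -0.32 log2 units (adjusted p = 0.0673).

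Other genes of FGF signalling were taken from a list of 87 genes, of which 59 had a probe by name and 48 a tested one. Diet was called higher for 9, lower for 4 and not called for 35, and the median difference was -0.003 log2 units, beside 6.20% higher, 19.1% lower and a median of -0.05 over all named genes. Among ligands, 5 of 20 genes were tested: FGF8, FGF11, FGF12, FGF13 and FGF18. Of these, FGF11, FGF12 and FGF13 are intracellular FGF homologues that do not act on the receptors. Only FGF13 was called for diet, and it was lower (-0.28 ± 0.09, adjusted p = 0.0162). FGF8 differed by -0.12 ± 0.09 (adjusted p = 0.276) and FGF18 by -0.02 ± 0.07 (adjusted p = 0.872). FGF21 had 2 probes, neither tested, with at most 17 of 48 arrays above background, and FGF10 was above background on 38 arrays without filling a group. FGF19 had no probe by name. FGF11 was called for line, lower in RFIneg (-0.42, adjusted p = 0.0516), where 3.32% of named genes were called for line.

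Among co-receptors and partners, 4 of 10 genes were tested and none was called for diet. FLRT3, a membrane protein that binds FGF receptors, was higher in RFIneg than in RFIpl (log2 difference 0.74, adjusted p = 0.00238). Neural cell adhesion molecule NCAM1 differed by 0.30 ± 0.13 between diets and was not called (adjusted p = 0.0656).

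The heparan sulfate genes held the largest fall of the list. GLCE, the epimerase that turns glucuronic into iduronic acid in the chains, was lower by -0.79 ± 0.10 (adjusted p = 1.89e-07), and its level was under the LF mean in 24 of 24 HF pigs. SULF1, which removes sulfates from the chains outside the cell, was higher by 0.47 ± 0.11 (adjusted p = 0.00168). The core proteins SDC4 (0.31, at 1 of 2 tested probes), GPC3 (0.19, called at 2 of 3 tested probes) and SDC3 (0.15) were higher as well. With an array left out, the GPC3 call was lost in 11 of 48 fits and the SDC3 call in 7. By brightest probe, 4 of 13 tested genes rose, 1 fell and 8 were not called, beside 6.20% higher and 19.1% lower over all named genes. SDC2 was among those not called, although 4 of its 10 tested probes were called higher.

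Among adaptors and kinases, GRB2, which links receptors to RAS, was higher by 0.14 at its brightest probe, the only one called of 4 tested, and this call was lost in 15 of 48 fits with an array left out. In the same group, PTPN11 (-0.19), a phosphatase of the pathway, and BRAF (-0.18, at 1 of 2 tested probes), a kinase below RAS, were lower. The other 11 of 14 were not called. Of 6 feedback inhibitors, DUSP6, the phosphatase of ERK, was higher by 0.21 ± 0.08 (adjusted p = 0.0357), a call lost in 32 of 48 fits that left out an array. Of 6 tested target genes, FOS (0.89 ± 0.26, adjusted p = 0.00737), EGR1 (0.43 ± 0.16) and MYC (0.27 ± 0.09) were higher. The EGR1 call was lost in 23 of 48 fits with an array left out and in the two-way test. The cyclin gene CCND1 differed by -0.10 ± 0.04 and was not called (adjusted p = 0.0494). ETV1 and ETV5, known targets of FGF signalling, were not called for diet. ETV1 differed by 0.04 ± 0.09 (adjusted p = 0.745) and ETV5 by 0.25 ± 0.10 (adjusted p = 0.0583). ETV5 met the adjusted threshold but not the raw one (p = 0.0186, limma). FOS and EGR1 respond to many stimuli besides FGF, and the cause of their rise was not tested.

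**Figure D5:**
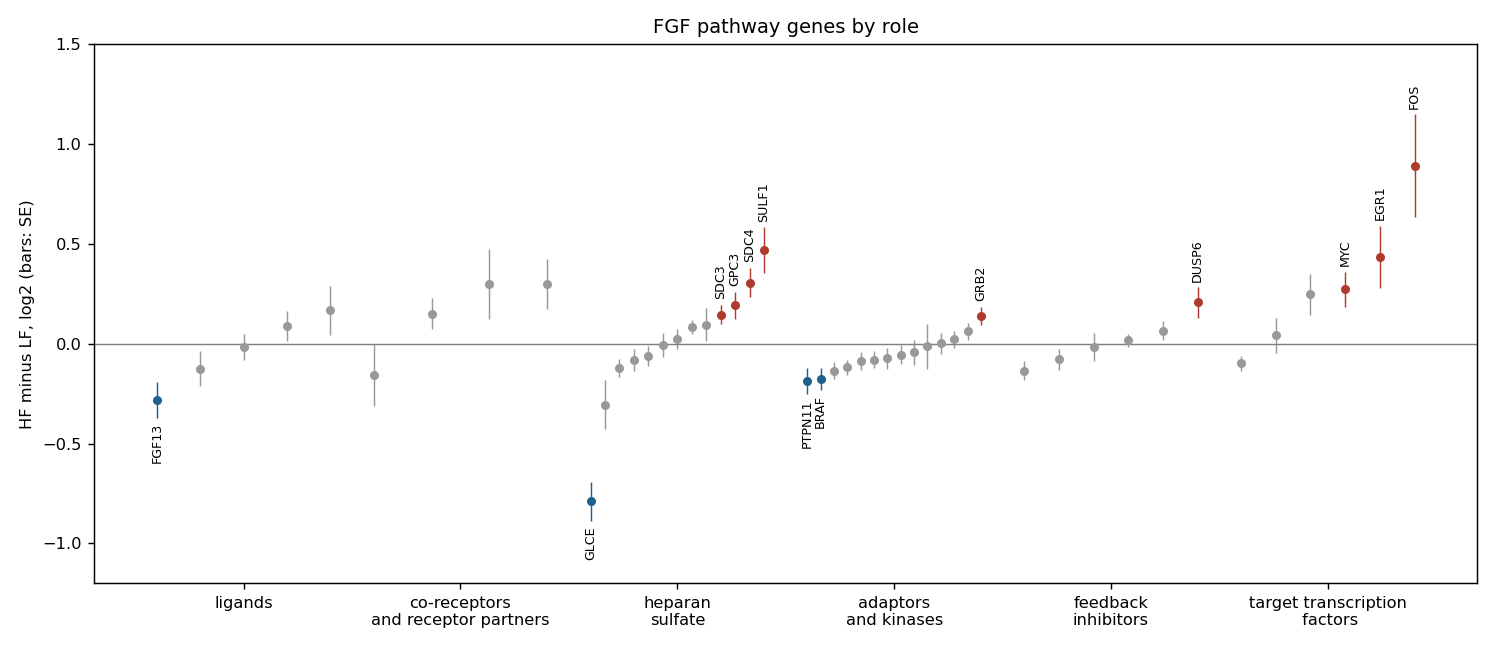
HF minus LF on the log2 scale, with SE bars, for the 48 tested genes of FGF signalling grouped by role (24 HF and 24 LF pigs; red, called higher; blue, called lower; grey, not called). GLCE lies lowest at -0.79 and FOS highest at 0.89. The group labelled target transcription factors also holds the cyclin gene CCND1.

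Markers of other cell types moved with diet beside these receptors. In bulk tissue, fewer cells of a type and less RNA per cell cannot be told apart. Of 5 tested macrophage markers 4 were higher under HF (C1QA 0.80, CD163 0.70, CSF1R 0.48, AIF1 0.36), and their summed level ranged from 4.90 to 7.48 under HF and from 4.80 to 7.14 under LF. Over 48 arrays, with group means removed, the mean of these markers had a correlation of -0.36 with FGFR4. For the 5 mesothelial and epithelial markers it was -0.38 and for the endothelial markers 0.29. Of 7 adipocyte markers 2 were lower (LEP and CIDEC), their sum ranged from 12.25 to 12.69 under HF and from 12.34 to 12.73 under LF, and the correlation with FGFR4 was 0.37. None of 6 fibroblast, 5 endothelial, 3 T cell, 2 erythrocyte, 4 adrenal or 5 mesothelial and epithelial markers was called, and the endothelial sums were 7.86 to 8.44 and 7.66 to 8.42. Of 5 muscle markers 1, DES, was lower (-0.15). All these marker counts use the brightest tested probe of each gene. Other probes were called lower for MYH7 (2 of 3 tested), CKM (1 of 11), LIPE (1 of 4) and FABP4 (1 of 8). For LUM, 1 of 11 was called higher. Of 6 kidney markers only AQP2 was tested, and it was lower (-0.63), while NPHS1, SLC34A1 and LRP2 were above background on at most 3 arrays. The part of these shifts in the receptor differences was not tested.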

How the data were processed

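Total RNA of 48 perirenal fat samples was labelled with Cy3, and per the labels and methods each was hybridised to 1 one-colour Agilent porcine array, with images read by Feature Extraction 10.7.3.1. The deposited scanner files hold intensity values per spot. The authors filtered spots, took log2 and centred each array on its median in R 2.10.0; the deposited log2 table holds 38142 such entries, and its row names do not belong to its values, so it was used only to find which probes the authors kept (38141 entries matched 1 spot by value). Here log2 of the median signal was centred on the array median over non-control probes. Probes well above background on every array of at least 1 group were tested by limma 3.58.1 (R 4.3.3) with diet, line and their interaction, adjusted over 40509 probes. The script was tested on simulated data. The array number limits precision. The labels do not say which pigs share litters or pens. The p-values set group differences against the spread between these samples and take the pigs as independent. That could not be checked, and shared litters or pens could make the p-values too small. Gene names come from 23581 probes named in the files and 389 through RefSeq. Every member probe is described; pathway genes are named where called, or to complete a group. The members and lists were chosen with earlier results of these data known. Alternatives covered signal, background correction, normalization, filters, blocks, weights, thresholds and single arrays.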

Additional observations from a re-analysis of the deposited data

How the results depend on the processing

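FGFR4 at A_72_P297849 kept its direction and its call for diet under all alternatives with a test. The count of 5 member probes called for diet became 2 with processed signals centred on the median and 8 with spike-in centring. It became 3 with array weights and 1 at a fold over 1.5. By gene, 3 became 1 with those processed signals, 1 at a fold over 1.5 and 1 with the mean of a gene's probes, each time FGFR4. FGFR4 had only 1 tested probe, so its mean is that same probe and this alternative could not change its call. The methods' two-way test gave 4 probes, 2 genes (FGFR2 lost) and 11 pathway genes, and array weights 2 genes; processed signals at the 75th percentile kept 5 probes and 3 genes. Spike-in centring moved the median difference of all tested probes from -0.02 to 0.12. The single call within lines became 3 with the 75th percentile, 3 with normexp and quantile, 3 with quantile and 6 with spike-in centring. The pathway count of 13 became 2 at a fold over 1.5. With 1 array left out, counts ranged from 2 to 5 (probes), 2 to 3 (genes), 1 to 2 (within lines) and 9 to 16 (pathway). Without HF_RFIneg pig 7, HF_RFIpl pig 5 or 10, LF_RFIneg pig 11 or LF_RFIpl pig 11, 2 member probes were called, and 15 other arrays left 3. KLB turned to 0.022 with the 75th percentile and 0.13 with spike-in centring and ranged from -0.035 to 0.013 with arrays left out; FGFR2 O13341 was -0.19 within slide 3. The cause was not tested. The titles do not say whether replicate numbers pair the pigs. Deviations from the group means had same-number correlations of -0.24 to 0.496 between arrays of different groups, with a median of 0.129. The median was 0.0475 for other numbers on the same slide and -0.0166 across slides, so some shared structure between same-numbered pigs may be present. With the replicate block 5 member probes and 13 pathway genes were called, as without it. Dim probes (FGFR3, O8277) limit what can be seen. Leaving out LF_RFIneg pig 2 for O8277 was chosen after seeing the data.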
